A study of Mus musculus with 6 samples.

Results

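Bcl11a and Bcl11b, a pair of related genes for zinc finger transcription factors, were followed through every probe set that the platform annotation gives to exactly 1 of them. There were 7 such probe sets for Bcl11a and 4 for Bcl11b, 11 of the 41420 on the table. The pair was selected with the difference of Bcl11a between the genotypes already known, so that difference is a description. Whether its probe sets fell past the threshold of the fit over all probe sets is stated as a count, from which nothing is read, and no p-value is given for them. The tissue was the whole uterus of intact female mice aged 2 weeks, on Affymetrix expression arrays. The tested genotype was Arid1a d/d with 3 arrays, and it was set against Arid1a f/f with 3 arrays. In the usual notation d stands for a deleted allele and f for a floxed one, so mice of both genotypes carry engineered alleles of Arid1a. The labels name neither the driver of the deletion nor the deleted part of the gene, and no strain. They do not say whether arrays came from separate animals, so the spread between arrays may be partly technical. By its title, the study asks about Arid1a and gland formation in the endometrium.

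BCL11A and BCL11B are mainly repressors. They were found as partners of the COUP-TF nuclear receptors, they recruit the NuRD corepressor complex, and both have been purified as subunits of mammalian BAF (SWI/SNF) chromatin remodelling complexes, to which ARID1A also belongs. BCL11A is best known for silencing embryonic and fetal globin genes in red cells and for its need in B lymphocyte development. BCL11B is best known for the commitment of T lymphocytes, and in mice it is also needed in skin and tooth epithelium.

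The windows below are shown to set the promoters of the pair side by side, and they give the 250 bases before 1 annotated start of each gene. They come from RefSeq on GRCm38.p6, are written 5′ to 3′ on the gene's strand, and have each CG dinucleotide in capitals. The Bcl11a window lies on the plus strand at chr11:24080445-24080694 and the Bcl11b window on the minus strand at chr12:108003415-108003664.
Bcl11a: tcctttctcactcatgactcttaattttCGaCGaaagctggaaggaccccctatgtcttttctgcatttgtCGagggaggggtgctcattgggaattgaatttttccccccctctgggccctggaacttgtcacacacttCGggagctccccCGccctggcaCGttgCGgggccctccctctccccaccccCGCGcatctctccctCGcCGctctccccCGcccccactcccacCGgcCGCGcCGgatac
Bcl11b: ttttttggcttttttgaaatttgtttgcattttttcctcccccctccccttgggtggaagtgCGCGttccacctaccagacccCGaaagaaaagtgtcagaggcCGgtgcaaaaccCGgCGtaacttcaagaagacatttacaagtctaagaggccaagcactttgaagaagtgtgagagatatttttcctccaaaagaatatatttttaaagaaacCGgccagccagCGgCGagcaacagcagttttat

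The Bcl11a window held 16 CG dinucleotides and the Bcl11b window 9, on a motif that reads the same on both strands. Of 32851 windows of this length, 25.4% held at least 16 and 40.3% at least 9, with a median of 6. The G and C content was 62% for Bcl11a and 44.8% for Bcl11b, against a median of 52.4%. This describes the sequence and says nothing of its methylation or use in these samples.

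The arrays had similar distributions, with median intensities of 6.34 to 6.59 and correlations between arrays of 0.987 to 0.995 over all probe sets. Array d/d 1 correlated at 0.991 to 0.995 with the f/f arrays, and at 0.990 with d/d 2 and 0.991 with d/d 3, so it was at least as close to the f/f arrays as to its own genotype. Results for Bcl11a are therefore also given without it. Of the stromal markers, 13 of 13 measured stood above background on all 6 arrays, among them Hoxa10, Hoxa11 and Hand2, transcription factor genes of the uterine stroma. Arid1a itself, by its single probe set, measured 6.98, 7.06 and 7.04 in d/d 1, 2 and 3, against 7.54, 7.58 and 7.71 in f/f 1, 2 and 3 (log2 intensity). The difference on that scale was -0.58 ± 0.09 (SE, n = 3 each; limma adjusted p = 0.0342 over all probe sets). When single arrays were omitted it passed in 1 of 6 fits, the one without d/d 1, with adjusted p up to 0.142 in the others. Where this probe set lies relative to the deletion is not given in the sources used here.

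With no detection calls at hand, background was read from 44 probe sets of 39 olfactory receptor genes, which a uterus is not expected to express. In each array their median lay at 1.68 to 1.83 and their 95th percentile at 2.38 to 2.69 on the log2 scale, and that percentile is called the background limit here. Between 50.5% and 56.8% of all probe sets stood above it in an array. Probe sets differ in how brightly they bind, so the limit is a guide to which values are measurable, and intensities of different probe sets are not levels of expression to be set against each other.

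Bcl11a was higher in d/d uteri by 2 probe sets to about the same extent, and by 1 more near background in f/f. Probe set 1456632_at measured 5.03, 5.22 and 5.13 in d/d 1, 2 and 3, against 3.75, 3.32 and 3.63 in f/f 1, 2 and 3 (log2 intensity). All d/d arrays lay above all f/f arrays, and the closest pair was 1.28 apart. Its means were 5.13 ± 0.09 in d/d and 3.57 ± 0.22 in f/f (SD, n = 3 each), a log2 difference of 1.56 ± 0.12 (SE) or 2.95-fold. In linear intensity it stood at 32.7, 37.2 and 35.1 in d/d, against 13.4, 9.96 and 12.4 in f/f.

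Probe set 1419406_a_at, whose suffix marks probes that match alternative transcripts of 1 gene, gave 4.71, 5.27 and 5.14 in d/d 1, 2 and 3, against 3.57, 3.27 and 3.58 in f/f 1, 2 and 3 (log2 intensity). The genotypes did not overlap here either, with 1.12 between the lowest d/d array, d/d 1, and the highest f/f array. Its log2 difference was 1.56 ± 0.16 (SE, n = 3 each), 2.96-fold. The third, 1457072_at, gave 3.49, 3.96 and 3.32 in d/d 1, 2 and 3, against 2.60, 1.95 and 2.15 in f/f 1, 2 and 3. Its log2 difference was 1.36 ± 0.20 (SE, n = 3 each), 2.56-fold. In f/f only 1 of its 3 arrays stood above the background limit, so the f/f level is close to background and limits the fold. A second reference, 15 probe sets of genes of other organs, had its 95th percentile at 3.13, 3.29 and 3.40 in f/f 1, 2 and 3. The f/f values of 1456632_at and 1419406_a_at lay near it, and 1419406_a_at was below it in f/f 2. Their folds may therefore be limited by background as well.

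**Figure D1:**
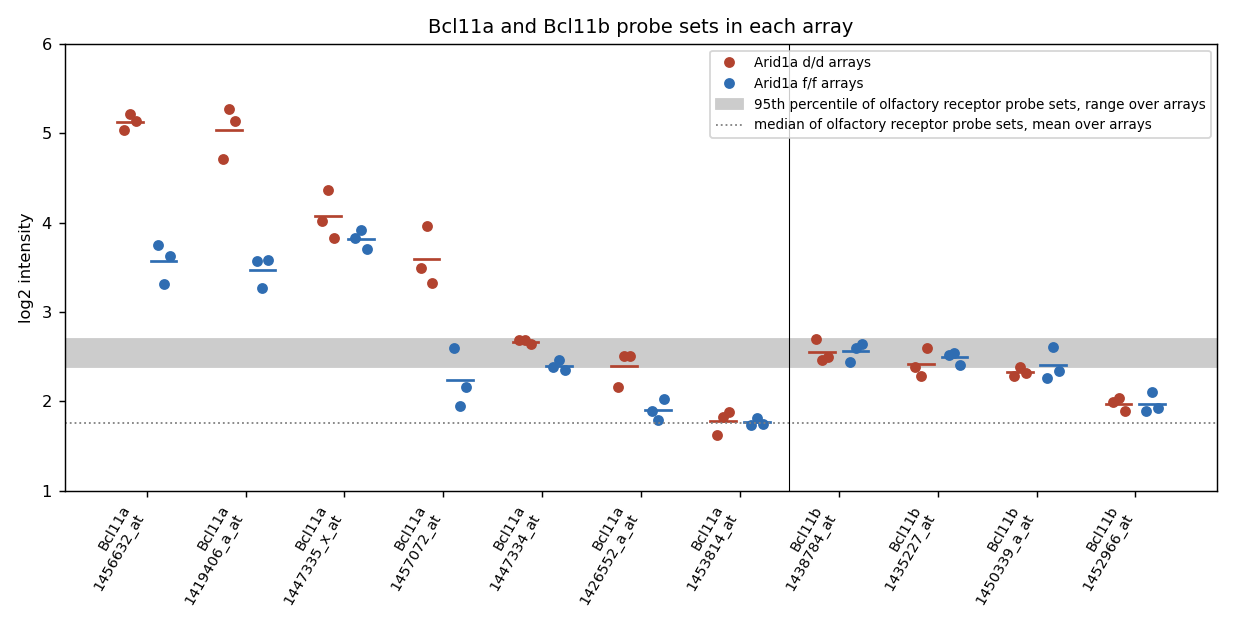
Log2 intensity of each Bcl11a (left of the line) and Bcl11b (right) probe set, with 1 point per array, Arid1a d/d in red and Arid1a f/f in blue, and short bars at the means of 3 arrays. The grey band, 2.38 to 2.69, is the range over arrays of the 95th percentile of olfactory receptor probe sets, and all Bcl11b probe sets lie in or below it or touch its upper edge.

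These 3 probe sets placed the arrays in nearly one order. Array d/d 2 was the highest and f/f 2 the lowest in each of them. Relative to the f/f mean of the same probe set, d/d 1 stood 1.23 to 1.47 higher over the 3 probe sets, d/d 2 stood 1.65 to 1.79 higher and d/d 3 stood 1.09 to 1.67 higher (log2). After centring each probe set on its own mean over the 6 arrays, 1456632_at and 1419406_a_at differed by a root mean square of 0.13, and 1457072_at differed from them by 0.21 and 0.26. The largest gap in any single array between 1456632_at and 1419406_a_at was 0.24.

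The other 4 Bcl11a probe sets showed small differences or none. Probe set 1426552_a_at measured 2.16, 2.51 and 2.51 in d/d 1, 2 and 3, against 1.88, 1.79 and 2.03 in f/f 1, 2 and 3. The genotypes did not overlap, with a log2 difference of 0.49 ± 0.12 (SE, n = 3 each), but only 1 of its 6 values exceeded the background limit of its array. Arrays d/d 2 and d/d 3 were tied at its top and f/f 2 was at its bottom. Probe sets 1447334_at and 1447335_x_at were designed from the same sequence record, but where their probes lie in it is not given in the sources used here. The first gave 2.68, 2.68 and 2.64 in d/d 1, 2 and 3, against 2.38, 2.46 and 2.35 in f/f 1, 2 and 3, a log2 difference of 0.27 ± 0.08 (SE, n = 3 each). All its f/f values lay below the background limit. With the limit taken in place of them, the d/d mean was 1.06-fold higher. The limit of f/f 2, at 2.69, lay above all d/d values, so this fold is no firm lower bound.

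The second of that pair was measurable throughout and showed little difference. Probe set 1447335_x_at gave 4.02, 4.37 and 3.83 in d/d 1, 2 and 3, against 3.83, 3.92 and 3.70 in f/f 1, 2 and 3. It stood above the background limit on all 6 arrays, and the genotypes overlapped, with a log2 difference of 0.26 ± 0.14 (SE, n = 3 each; 95% interval -0.07 to 0.58). Its suffix marks a probe set with probes that also match other sequences. The last, 1453814_at, measured 1.62, 1.83 and 1.87 in d/d 1, 2 and 3, against 1.74, 1.81 and 1.75 in f/f 1, 2 and 3, and was above the background limit in 0 of 6 arrays. Its log2 difference was 0.008 ± 0.096 (SE, n = 3 each).

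**Figure D2:**
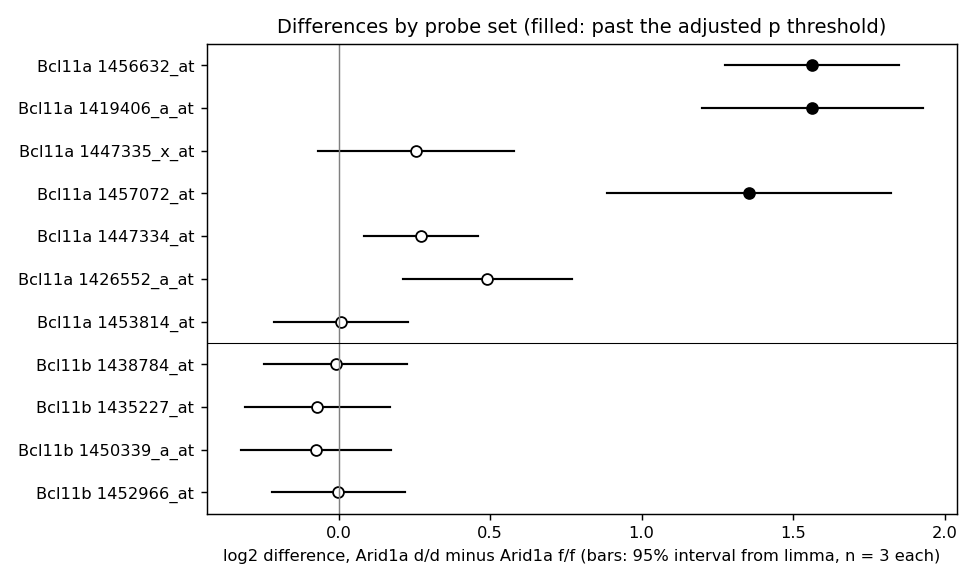
Log2 difference, Arid1a d/d minus Arid1a f/f, of each probe set with its 95% interval from the limma fit (n = 3 arrays each), filled where the adjusted p over all probe sets was under 0.05. The filled points, at 1.36 to 1.56, lie apart from the other Bcl11a probe sets at 0.008 to 0.49 and from Bcl11b at -0.07 to -0.001.

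Counted over the gene, 7 of 7 Bcl11a probe sets had a positive difference, from 0.008 to 1.56 with a median of 0.49 on the log2 scale. That of 1453814_at changed sign, to as low as -0.04, when single arrays were omitted. Of these, 3 of 7 passed an adjusted p of 0.05 over all probe sets (limma, Benjamini-Hochberg), where 0.314% of all probe sets passed upward. In 5 of 7 every d/d array lay above every f/f array, which held for 6.67% of all probe sets. As the gene was selected on this contrast, nothing is read from these shares. Among all genes, 103 had a probe set that passed upward, and 3 had at least 3 of them: Bcl11a, Hmga2 and Sema3e, named here because the count is small. Genes with more probe sets have more chances to reach such a count. Bcl11a has 7, and 126 genes have 7 or more, so nothing is read from this count either. The mean over the 7 probe sets gave a log2 difference of 0.79.

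Omitting single arrays left the 3 differences about as large. They were 1.44 to 1.66 for 1456632_at, 1.45 to 1.73 for 1419406_a_at and 1.17 to 1.54 for 1457072_at on the log2 scale. The number of such fits past the threshold was 6 of 6 for 1456632_at, 3 of 6 for 1419406_a_at and 2 of 6 for 1457072_at, and again nothing is read from these counts. Without d/d 3, f/f 2 or f/f 3 only 1 of the 7 passed. Without d/d 1, 4 of the 7 passed, with 1426552_a_at at 0.61 as the fourth, and 1419406_a_at stood at 1.73. With 10 intensity units added to every value before the logarithm, which shrinks differences of dim probe sets, the log2 differences were 1.04, 1.02 and 0.58 for 1456632_at, 1419406_a_at and 1457072_at, and only the first passed.

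**Figure D3:**
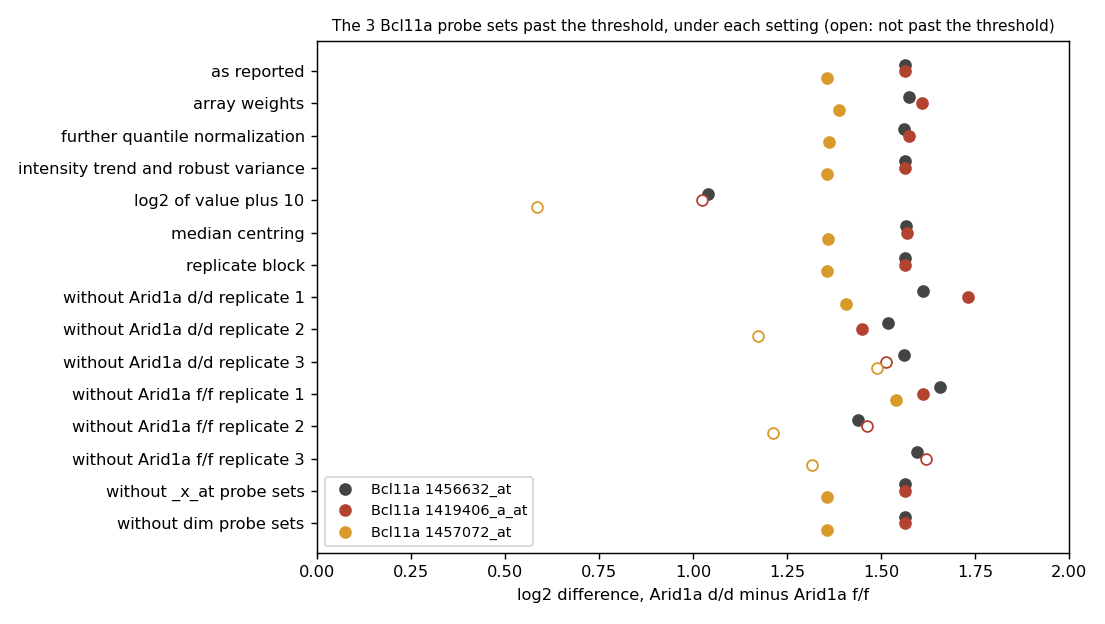
Log2 difference, Arid1a d/d minus Arid1a f/f, of the 3 Bcl11a probe sets past the threshold under each setting, filled where the adjusted p was under 0.05 and open where not. All points are above 0, 1456632_at (grey) is filled in every row, and adding 10 intensity units moves the points furthest, to 1.04, 1.02 and 0.58.

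Bcl11b lay at or near background in both genotypes. Probe set 1438784_at measured 2.70, 2.46 and 2.49 in d/d 1, 2 and 3, against 2.44, 2.60 and 2.65 in f/f 1, 2 and 3 (log2 intensity). Probe set 1435227_at gave 2.38, 2.28 and 2.59 in d/d, against 2.52, 2.54 and 2.41 in f/f. The genotypes overlapped in both, and neither was above the background limit on all arrays of a genotype.

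Probe set 1450339_a_at gave 2.29, 2.38 and 2.31 in d/d, against 2.26, 2.61 and 2.34 in f/f. Probe set 1452966_at gave 1.99, 2.04 and 1.89 in d/d, against 1.89, 2.10 and 1.93 in f/f. Again the genotypes overlapped, and 1452966_at was below the background limit on all 6 arrays. Over the 4 Bcl11b probe sets, 6 of 24 values exceeded the background limit of their array, which 50.5% to 56.8% of all probe sets did. For Bcl11a the count was 26 of 42, with 5 probe sets above the limit on all d/d arrays and 3 on all f/f arrays. That count includes the d/d values on which Bcl11a was selected, so nothing is read from it.

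All 4 differences of Bcl11b lay between -0.07 and -0.001 on the log2 scale, with SE of 0.10 to 0.11 and 95% intervals reaching from -0.32 to 0.23. With limma, 0 of 4 passed the adjusted threshold and 0 of 4 had an unadjusted p under 0.05, which 9.85% of all probe sets had. At this distance from background a change in a small population of cells would not be detectable.

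Genes that follow Bcl11a most closely were picked by their profile alone. Each of 10567 genes above the median level was centred on its own mean over the 6 arrays and set against 1456632_at by the root mean square difference. The level was the mean of all 6 arrays, so a gene could enter through its d/d values alone. The 5 closest were Mpzl2 (0.13), Cyp4x1 (0.14), Prr15 (0.18), Elapor1 (0.19) and Dzank1 (0.22), where the median over all candidates was 0.81. Mpzl2 encodes an adhesion protein of epithelia, and Cyp4x1 a cytochrome P450 enzyme. Mpzl2 averaged 6.80 ± 0.18 in d/d arrays and 5.05 ± 0.18 in f/f arrays (log2 intensity, SD, n = 3 each). Like Bcl11a, it was highest in d/d 2 and lowest in f/f 2, and so was Cyp4x1. In f/f arrays Cyp4x1 averaged 2.33, under the median level of 2.69, so it entered through its d/d values. Its values in f/f 2 and f/f 3, 2.19 and 2.28, lay below the background limit, which limits its difference. Since the choice fixes their direction, the differences of the 5, which ran from 1.27 to 1.75, add no evidence.

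**Figure D4:**
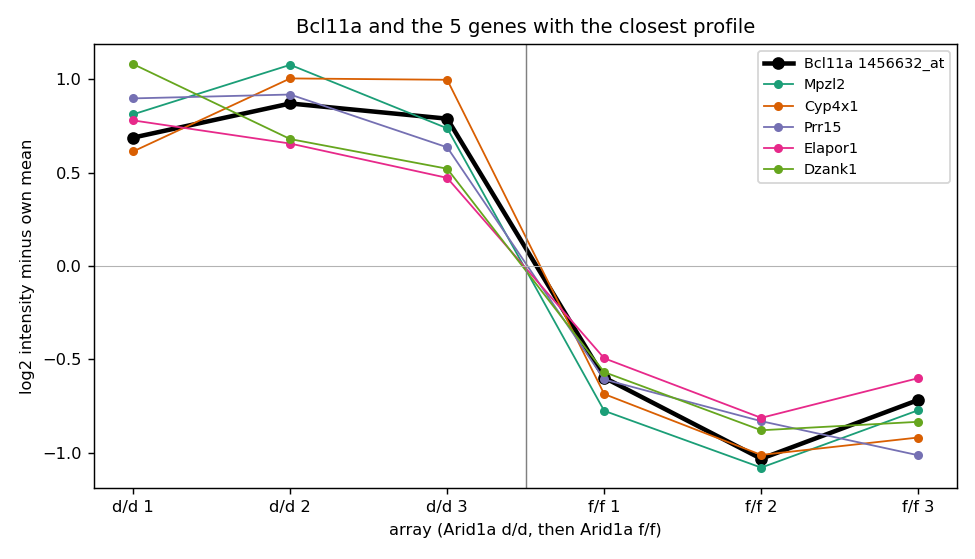
Log2 intensity minus its own mean over the 6 arrays for Bcl11a 1456632_at (black) and the 5 genes with the smallest root mean square difference from it, Arid1a d/d arrays left and Arid1a f/f arrays right. Bcl11a is highest in d/d 2 and lowest in f/f 2, a shape that Mpzl2 and Cyp4x1 share, whereas Dzank1 and Elapor1 are highest in d/d 1.

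Of the other genes of complexes that BCL11 proteins join, 1 passed the test, Arid1a itself. Each gene was taken by its brightest probe set and tested over all 16813 genes with limma, where 0.63% of genes passed upward and 0.512% downward and the median log2 difference was -0.01. Of 27 measured BAF subunit genes, a list that leaves out Bcl11a and Bcl11b, 0 rose, 1 fell, which was Arid1a, and 26 did not pass (median -0.01). Arid1b, the paralogue that takes the place of ARID1A in the complex, measured 7.48, 7.45 and 7.33 in d/d 1, 2 and 3, against 7.37, 7.14 and 7.15 in f/f 1, 2 and 3. Its log2 difference was 0.20 ± 0.10 (SE, n = 3 each; limma adjusted p = 0.502). The ATPase genes Smarca4 and Smarca2 stood at 0.22 ± 0.14 and -0.33 ± 0.19 (SE) and did not pass (limma adjusted p of 0.615 and 0.576). These values are from 1 probe set each. The other Smarca4 probe set gave 0.91 ± 0.19 (SE; limma adjusted p = 0.105 over probe sets), and the mean of both gave 0.57 (limma adjusted p = 0.112 over genes), so the size of the Smarca4 difference depends on the probe set. Without d/d 1, Smarca2 (-0.55) passed beside Arid1a, and without any other array 0 BAF genes passed.

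Of 17 measured NuRD and other corepressor genes, 0 passed in either direction with limma and 2 had an unadjusted p under 0.05, a share to read against the 12.2% of all genes that had one. These were Chd3 and Chd4, remodelling ATPases of NuRD, at 0.26 ± 0.09 and -0.22 ± 0.09 (SE; limma adjusted p of 0.270 and 0.370). Of the COUP-TF genes, Nr2f2, a stromal regulator of the uterus, stood at -0.18 ± 0.17 and Nr2f6 at 0.26 ± 0.15 (SE), and neither passed nor had an unadjusted p under 0.05. Nr2f1 was not analysed here.

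Among 10 measured genes of other zinc finger factors of blood and development, 1 rose and 0 fell. Ikzf3, the lymphoid factor Aiolos, measured 3.89, 3.97 and 4.05 in d/d 1, 2 and 3, against 3.31, 3.01 and 3.38 in f/f 1, 2 and 3. Its log2 difference was 0.74 ± 0.12 (SE, n = 3 each; limma adjusted p = 0.0347 over genes). Omitting single arrays kept the call in 1 of 6 cases, without d/d 1, and its other 2 probe sets, both below the background limit on all arrays, gave 0.16 and -0.15. Zfp296, a zinc finger gene related to the BCL11 genes, was below the background limit on all 6 arrays, with a log2 difference of 0.02 ± 0.10 (SE).

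Globin and erythroid genes, among which BCL11A is known to repress the embryonic globins, were looked at as well. Of 9 measured globin and erythroid genes 0 passed with limma and 0 had an unadjusted p under 0.05 (median -0.11). Only 2 of the 9, Alas2 and Hbb-b2, were above the background limit on all arrays, and 5 were below it on all. Another 5 genes of the list, several of them globins, were not analysed. So near background, the list can show little of a globin change. The embryonic globin gene Hbb-bh1 stood below the background limit on all arrays, at 1.91, 1.75 and 1.95 in d/d 1, 2 and 3, against 2.02, 2.26 and 1.88 in f/f 1, 2 and 3. Of 7 genes of natural killer cells, which include several that rise when mouse T cell precursors lose Bcl11b, 0 passed with limma and 1 had an unadjusted p under 0.05. That gene was Id2, an inhibitor of helix-loop-helix factors, at 0.52 ± 0.17 (SE; limma adjusted p = 0.258).

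**Figure D5:**
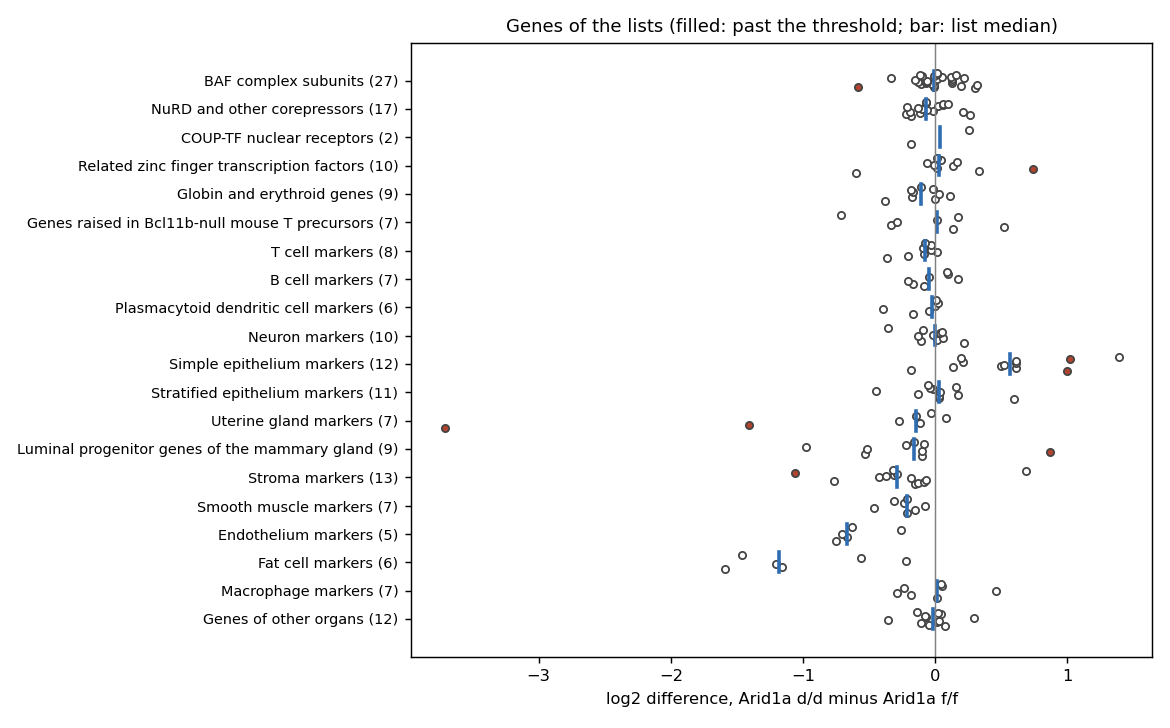
Log2 difference, Arid1a d/d minus Arid1a f/f, of each measured gene of the lists (number measured in brackets), filled where the adjusted p over all genes was under 0.05, with the list median as a blue bar. The BAF and NuRD lists have medians of -0.01 and -0.07 with Arid1a as the filled point at -0.58, while simple epithelium has a median of 0.57 and fat cells one of -1.18.

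Markers of cells that use these factors in other tissues did not pass the test. Of 8 measured T cell markers 0 passed with limma and 1 had an unadjusted p under 0.05, Cd3d, a subunit of the T cell receptor complex, at -0.36 ± 0.10 (SE; limma adjusted p = 0.181). Their summed intensity was 46.4 to 49.0 in d/d arrays, against 50.5 to 54.4 in f/f arrays, with Cd3d, Cd3e, Cd4 and Cd6 above the background limit on all 6 arrays and Cd8b1, Rag1 and Themis below it on all 6. Of 7 B cell markers 0 passed with limma and 0 had an unadjusted p under 0.05. The B cell genes Pax5 and Ms4a1 were below the background limit on all arrays and Cd22 and Igll1 above it on all, and the summed intensity of the list was 41.3 to 43.5 in d/d arrays, against 39.1 to 45.7 in f/f arrays.

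Of 6 markers of plasmacytoid dendritic cells, which express Bcl11a, 0 passed with limma and 1 had an unadjusted p under 0.05, Il3ra at -0.39 ± 0.08 (SE; limma adjusted p = 0.0754). Siglech, Ccr9, Spib and Cox6a2 were below the background limit on all arrays and Il3ra and Klk1 above it on all, and the summed intensity was 36.7 to 38.1 in d/d arrays, against 39.7 to 41.6 in f/f arrays. Of 10 neuron markers 0 passed with limma and 2 had an unadjusted p under 0.05, Uchl1 at -0.35 ± 0.12 and Elavl3 at 0.22 ± 0.09 (SE). Their summed intensity was 61.9 to 72.5 in d/d arrays, against 68.6 to 71.3 in f/f arrays. Rbfox3, Stmn2, Syt1 and Uchl1 were above the background limit on all arrays, and Elavl4, Nefl, Nefm and Snap25 below it on all. The part of such cells in the Bcl11a difference was not tested.

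Among markers of simple epithelium, 2 of 12 measured rose (Muc1 and Cdh1), 0 fell and 10 did not pass, with a median log2 difference of 0.57. With limma, 8 of 12 had an unadjusted p under 0.05, all higher in d/d. The differences ran from -0.18 for Cldn3 to 1.39 ± 0.32 for Wnt7a (SE; limma adjusted p = 0.102). All 12 were above the background limit on all arrays. Their summed intensity was 4204, 4515 and 4242 in d/d 1, 2 and 3, against 3152, 3397 and 2757 in f/f 1, 2 and 3, and the ratio of geometric means was 1.40, beside 2.95 for Bcl11a 1456632_at. Such a sum follows its brightest genes, and the single markers ranged from lower in d/d to 2.62-fold higher for Wnt7a. In whole tissue, more cells of a type and more RNA per cell cannot be told apart, and the part of the epithelial shift in the Bcl11a difference was not tested. Muc1, a mucin of the luminal surface, was higher by 1.03 ± 0.13 (SE, n = 3 each; limma adjusted p = 0.0178), and Cdh1, the adhesion protein E-cadherin, by 1.00 ± 0.15 (SE, n = 3 each; limma adjusted p = 0.0314). Each of Muc1 and Cdh1 kept its call in 1 of 6 cases when single arrays were omitted, without d/d 1.

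Other epithelial lists were counted in the same way. Of 11 markers of stratified epithelium, where mouse Bcl11b acts in skin, 0 passed with limma. Only Dsc3 had an unadjusted p under 0.05 (limma adjusted p = 0.190). Its f/f arrays were below the background limit, and with the limit in their place its d/d mean was 1.14-fold higher. Its value in d/d 2, 2.49, lay below the limits of f/f 2 and f/f 3, at 2.69 and 2.63, so this fold is no firm lower bound. Of the 11, 6 were below the background limit on all arrays, among them Krt14 and Trp63, basal genes of such epithelium. Another 3, the keratin genes Krt5, Krt10 and Krt15, were above it on all 6 arrays. Krt15 varied between arrays, at 2.65, 5.63 and 5.67 in d/d 1, 2 and 3, against 3.75, 5.83 and 5.72 in f/f 1, 2 and 3. Of 9 genes of luminal progenitors in the mammary gland, a cell type in which Bcl11a acts in mice, 1 rose and 0 fell, while 8 of the 9 differences were negative (median -0.16). With limma 3 had an unadjusted p under 0.05, the riser Elf5 and, lower in d/d, Kit, a receptor tyrosine kinase, at -0.98 ± 0.19 and Itgb3, an integrin subunit, at -0.51 ± 0.16 (SE; limma adjusted p of 0.0596 and 0.242). Elf5, an epithelial ETS factor, measured 3.06, 3.57 and 3.53 in d/d 1, 2 and 3, against 2.48, 2.64 and 2.42 in f/f 1, 2 and 3. Its log2 difference was 0.87 ± 0.15 (SE; limma adjusted p = 0.0441 over genes and 0.0518 over probe sets). Only 1 of its 3 f/f values was above the background limit, and its other probe set, below the limit on all arrays, gave 0.08. With single arrays omitted it passed in 1 of 6 cases, again without d/d 1. Of 7 gland markers 0 rose and 2 fell (median -0.14). Cxcl15, a chemokine of uterine glands, averaged 1.87 in d/d arrays, all below the background limit, and 5.58 in f/f arrays, and was at least 8.45-fold lower in d/d (limma adjusted p = 0.00538). Foxa2, a transcription factor needed for these glands, stood at -1.41 ± 0.16 (SE; limma adjusted p = 0.0116). When single arrays were omitted, Foxa2 kept its call only without d/d 1 or f/f 1.

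Among the remaining lists few genes passed. Of 13 stromal markers 0 rose and 1 fell (median -0.29). Thy1, a surface protein of fibroblasts and T cells, stood at -1.06 ± 0.13 (SE; limma adjusted p = 0.0155). When single arrays were omitted, Thy1 kept its call only without d/d 1 or f/f 1. Of 5 endothelial, 6 fat cell and 7 smooth muscle markers 0 passed with limma, and 4, 5 and 1 had an unadjusted p under 0.05, all lower in d/d, with medians of -0.67, -1.18 and -0.21. Of 7 macrophage markers 0 passed and 1 had an unadjusted p under 0.05, Cd68, at 0.46 ± 0.08 (SE; limma adjusted p = 0.0544). Of 12 genes of other organs 0 passed with limma, 2 had an unadjusted p under 0.05, and 9 were below the background limit on all arrays. Another 2, Ins2 and Omp, were above it on all 6 arrays, so a value above it need not mean expression.

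Neighbouring genes on the chromosome, chosen by position, did not pass the test. The 3 protein-coding genes on either side of Bcl11a in the RefSeq order are Pus10, Rel, Papolg, Fancl, Vrk2 and Ccdc85a. Their log2 differences ran from -0.04 for Rel to 0.28 ± 0.12 for Vrk2 (SE; limma adjusted p = 0.393). Of the neighbours of Bcl11b, the measured ones Vrk1, Setd3 and Ccnk stood between -0.05 and 0.31, the highest being Vrk1 (limma adjusted p = 0.419).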

How the data were processed

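Biotin-labelled cRNA from 500 ng of total RNA was hybridised per array, per the labels. The deposited intensity values are linear, 1 per probe set and array, and RMA is named for them in the submitters' processing notes, with no version or settings. Array medians of 6.34 to 6.59 on the linear scale are low for RMA, so a further step is possible, and the background limit and differences near it depend on it. Where 1 genotype lay below that limit on all arrays and the other above it, the limit replaced the lower values. The fold then bounds the difference of means only, with no allowance for the spread between arrays. RMA corrects background and equalises array distributions, which compresses small differences of dim probe sets. The genome build and aligner are not given in the sources used here.

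The log2 of each value was taken with no added constant, and 0 columns were left out. Of 41420 probe sets, 31562 had 1 symbol, 830 several and 9028 none. All probe sets, and separately 16813 genes by their brightest probe set, were fitted by lmFit and eBayes (limma 3.58.1, R 4.3.3; 2-sided, Benjamini-Hochberg, threshold 0.05). The members, lists and rule for named genes were chosen with earlier results of these data known. That rule takes all member probe sets, Arid1a, set BAF and COUP-TF genes, up to 3 called members per list (or up to 2 of smallest p), and the 5 closest profiles. The neighbouring genes, Hmga2, Sema3e, Kit, Itgb3, Cldn3 and Wnt7a fall outside it, as do markers named for their distance from background. Apart from the neighbours, chosen by position, these were named after their values were seen. On simulated data with 41420 probe sets, the fit recovered 21 of 50 at a 1.5-fold change, 44 of 50 at 2-fold and 49 of 50 at 4-fold. Of its 176 calls, 12 were false. The simulated noise was normal and independent between arrays, so these recoveries need not hold for the real arrays. Precision is limited by having 3 arrays a genotype. The alternatives were a replicate block, variance models, normalizations, filters, an added constant, single arrays left out and an adjusted p under 0.10.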

Additional observations from a re-analysis of the deposited data

How the results depend on the processing

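Replicate numbers were left out of the main fit. The correlations between deviations of arrays sharing a number were 0.461, 0.0228 and 0.178 for numbers 1, 2 and 3. These values do not settle whether arrays sharing a number are pairs, which was not tested. With the replicate block, 574 probe sets passed (295 higher, 279 lower) and 217 genes were higher and 240 lower, in place of 217 probe sets (130 and 87) and 106 and 86 genes, and 3 Bcl11a probe sets still passed. With array weights the calls came to 329 probe sets (147 of them lower), 194 genes higher and 187 lower. Adding 10 intensity units gave 25 probe sets (14 higher, 11 lower), 28 genes higher and 19 lower, 1 Bcl11a probe set and an Arid1a log2 difference of -0.55 (limma adjusted p = 0.0550). Raising the adjusted p threshold to 0.10 called 462 probe sets (256 higher, 206 lower), 198 genes higher and 205 lower, which follows from the looser threshold. With single arrays left out, the count of probe sets was 37 to 971, of which 21 to 410 were higher and 16 to 561 lower. There were 16 to 328 genes higher and 10 to 493 lower. The highest of these counts came without d/d 1, and the other fits called 37 to 105 probe sets. The same fits called 1 to 4 Bcl11a probe sets and put Arid1a between -0.62 and -0.53, with adjusted p up to 0.142. Arid1a was called in 1 of these 6 fits, without d/d 1. Zfp296 ranged from -0.023 to 0.094, with -0.021 without f/f 1 and -0.016 without f/f 3, never past the threshold. Bcl11b had 0 calls in all 15 alternatives. With genes of other organs as the background, 4 probe sets, in place of 5, stood above it in every array of a genotype, all of them of Bcl11a. The cause of these shifts was not tested, apart from the looser threshold.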
